A study of Rattus norvegicus with 8 samples.

Results

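The amino acid stress response genes described here are 8 rat genes linked to the transcription factor ATF4: Atf4, Ddit3, Trib3, Asns, Phgdh, Psat1, Shmt2 and Mthfd2. They are listed by symbol, and each is read by the probe set with a single gene symbol and the highest mean over the arrays. All 8 were measured, among 14511 genes in all. Liver RNA of female Wistar rats, an outbred strain, was hybridised to 8 Affymetrix Rat Gene 1.0 ST arrays in 4 groups of 2. The groups are the liver left 8 h after partial hepatectomy (PH, surgical removal of the lateral lobes) and the livers of rats aged 2, 4 and 12 weeks that had no stated operation. How old the operated rats were is not stated in the labels, and sham-operated livers were not analysed here, so operation and age cannot be told apart when PH is set beside 12 weeks. Sample titles speak of biological replicates and the design text of duplicates, so each p-value reflects only how far these arrays spread, which may be partly technical.

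When a cell runs short of amino acids or its endoplasmic reticulum (ER) fills with unfolded protein, kinases phosphorylate the initiation factor eIF2. General translation then slows while the ATF4 mRNA is translated more, so the ATF4 protein can increase without any change in its mRNA. ATF4 switches on genes that make and import amino acids and load them on tRNA. In the liver, which both builds and breaks down amino acids for the body, this programme responds to protein supply and to secretory load.

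The arrays carried liver RNA: the 9 hepatocyte markers, such as Alb and Cps1, had a mean level between 12.83 and 13.08 on every array (log2). Array medians over all probe sets lay between 5.98 and 6.17. Within a group, the correlation across genes (which are not independent replicates) ran from r = 0.952 at 12 weeks to 0.98 after PH. At 12 weeks 1838 genes differed at least 2-fold between the arrays, against 432 to 621 in the other groups. As a measure of low signal, 1256 genes of olfactory and related receptors had medians of 4.74 and 3.91 at 12 weeks, 4.64 and 4.17 after PH and 4 to 4.06 elsewhere.

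The bases before the annotated start are shown for Asns, the member whose level differed most between the groups, and for 7 genes with a match to the ATF4 and C/EBP composite motif. These are Trib3, Slc1a4 and 5 aminoacyl-tRNA synthetase genes. The sequences are from RefSeq, build GRCr8, printed 5′ to 3′ on the strand of the gene. Capitals mark a match to TGATGNAA or, on the other strand, TTNCATCA. The Asns stretch lies at chr4:36769416-36769665 (minus strand) and holds no match in these 250 bases.
Asns: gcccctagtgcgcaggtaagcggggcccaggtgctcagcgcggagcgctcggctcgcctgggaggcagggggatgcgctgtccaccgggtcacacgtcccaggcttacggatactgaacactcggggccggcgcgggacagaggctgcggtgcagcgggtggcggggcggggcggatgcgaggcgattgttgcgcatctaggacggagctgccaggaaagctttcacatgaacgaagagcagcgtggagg
Trib3, at chr3:161275534-161275570 (minus strand): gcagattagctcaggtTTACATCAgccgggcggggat
Slc1a4, at chr14:98761774-98761812 (minus strand): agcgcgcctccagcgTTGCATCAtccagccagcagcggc
Aars1, at chr19:55908354-55908393 (plus strand): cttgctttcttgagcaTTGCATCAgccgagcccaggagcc
Iars1, at chr17:15193653-15193692 (minus strand): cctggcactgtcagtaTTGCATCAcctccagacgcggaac
Mars1, at chr7:65023754-65023786 (minus strand): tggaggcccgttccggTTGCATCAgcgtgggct
Nars1, at chr18:60275783-60275812 (minus strand): gctgccctaggtgatcTGATGCAAcgcttc
Tars1, at chr2:62114806-62114845 (minus strand): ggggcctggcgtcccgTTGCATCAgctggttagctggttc

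The motif was searched on both strands from 250 bases before to 50 after the annotated start of each gene. The forms are each other's reverse complement and their letters allow no overlap between them. Trib3 was the only member of the 8 with a match (1 of 8, 12.5%), while 3.98% of all 33469 promoters of that length held one. Among genes around the pathway, matches were found in 7 of 11 aminoacyl-tRNA synthetase promoters, 5 of 14 promoters of other ATF4-linked stress targets, 2 of 7 of amino acid transporters, 1 of 11 of ER chaperone and related genes and 1 of 10 of eIF2 kinases and regulators, and none in the serine, glycine and folate enzymes matched. Several of these genes are known for ATF4 binding, so the first 3 shares were not chosen independently of the motif. A match describes letters, not binding, and its absence refers to this window alone.

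Atf4, the regulator itself, stood at 9.76 and 9.75 on the PH arrays, 9.44 and 9.5 at 2 weeks, 9.49 and 9.73 at 4 weeks and 9.85 and 9.56 at 12 weeks (RMA level, log2). The 2-week arrays and 1 of the 4-week arrays were the lowest 3, and the group means spanned 0.28. Both PH arrays lay above the 2- and 4-week arrays, by 0.28 ± 0.22 and 0.15 ± 0.22 on average (limma adjusted p = 0.7435 and 0.92). After PH the difference from 12 weeks was 0.05, with a 95% interval from -0.45 to 0.55 (limma, adjusted p = 1). The arrays of 2 and 12 weeks did not overlap, at a difference of -0.23 ± 0.22 (SE; adjusted p = 0.8019). An mRNA level does not report the amount of ATF4 protein, which was not measured.

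Ddit3, which encodes the stress factor CHOP, read 6.50 and 6.81 after PH, 5.96 and 7.07 at 2 weeks, 6.51 and 6.63 at 4 weeks and 6.51 and 7.16 at 12 weeks. All groups overlapped each other, and the 2-week arrays alone lay 1.11 apart. The PH difference from 12 weeks was -0.18 (95% interval -1.05 to 0.70) that holds a fall of 2-fold. Trib3, a pseudokinase induced by ATF4 and CHOP that restrains the response, read 6.69 and 6.37 after PH, 6.08 and 7.11 at 2 weeks, 6.39 and 6.39 at 4 weeks and 6.22 and 6.38 at 12 weeks. Its 2-week arrays were the lowest and the highest of the 8, 1.03 apart, and the 4-week arrays lay just above the 12-week ones. Here the PH difference from 12 weeks was 0.23 (95% interval -0.53 to 1.00). The 3 regulators together gave 0 adjusted calls in the 6 pairwise comparisons, where 0.0345% to 2.23% of all genes were called. None of them had an unadjusted p under 0.05 in any, beside 4.47% to 11.6% of all genes. Such counts lie near the background.

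Asns, asparagine synthetase, makes asparagine from aspartate and glutamine and is a classic target of ATF4. It read 8.58 and 8.46 after PH, 7.91 and 7.30 at 2 weeks, 7.46 and 7.46 at 4 weeks and 6.63 and 6.63 at 12 weeks. Both PH arrays lay above all 6 others and both 12-week arrays below all others, with the 2- and 4-week arrays overlapping between them. Asns changed across the 4 groups (moderated F = 19.18, limma adjusted p = 0.03441), the only one of the 8 members to pass that test, against 1.79% of all genes. It ranked 188 of 14511 genes by that p, and its group means spanned 1.89, a span reached by 2.58% of genes. In bulk tissue, fewer cells that express a gene and less RNA per cell cannot be told apart.

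The adjusted p of Asns across the groups was 0.1955 and 0.1646 when the first or second PH array was left out, 0.05326 without the first array of 2 weeks, 0.09049 and 0.08632 without the first and second 4-week arrays, and 0.06361 and 0.06122 without the first and second 12-week arrays. It was 0.05265 with each array centred on its median and 0.07764 when every probe set was tested. The threshold was passed in 7 of 16 alternatives.

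In pairs, Asns was 3.7-fold higher after PH than at 12 weeks, a log2 difference of 1.89 ± 0.25 (SE) between means of 8.52 ± 0.09 and 6.63 ± 0.00 (SD, n = 2 each). The limma adjusted p was 0.06132, above the threshold of 0.05, at rank 13 of all genes by p, and the size of the difference exceeded that of 99.7% of genes. The adjusted p was 0.03463 when the receptor genes' level entered the model, and 0.4396 and 0.4283 without the first and second PH array; the difference stayed between 1.83 and 1.95 in all 17 alternatives run. Between neighbours in the order of levels, PH exceeded 2 weeks by 0.91 ± 0.25 (95% interval 0.34 to 1.48, adjusted p = 0.1426), 2 weeks exceeded 4 weeks by 0.15 ± 0.25 (interval -0.42 to 0.72) and 4 weeks exceeded 12 weeks by 0.83 ± 0.25 (interval 0.26 to 1.40, adjusted p = 0.679). The 2- and 4-week arrays overlapped. Erythroid, neutrophil and dividing-cell markers (8, 8 and 6 measured) had median differences from 12 weeks of 1.88, 1.21 and 2.78 at 2 weeks. Of these markers 3, 0 and 5 were called at 2 weeks, beside 2.23% of all genes. The medians were 0.78, 0.43 and 1.49 at 4 weeks, with 0 called in each set, and -0.02, 0.07 and -0.11 after PH. The 2-week arrays had mean levels of 7.81 and 6.80 for erythroid and 8.09 and 7.46 for dividing-cell markers. For neutrophil markers they read 7.49 and 5.75, against 5.01 to 5.73 on the arrays of the other groups. Lymphocyte markers (7 of 9 measured) had medians of -0.80 at 2 weeks and -0.75 after PH with 0 called, at mean levels of 5.75 and 5.79 after PH and 6.07 and 6.95 at 12 weeks. The part of these cells in the Asns level was not tested.

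**Figure D1:**
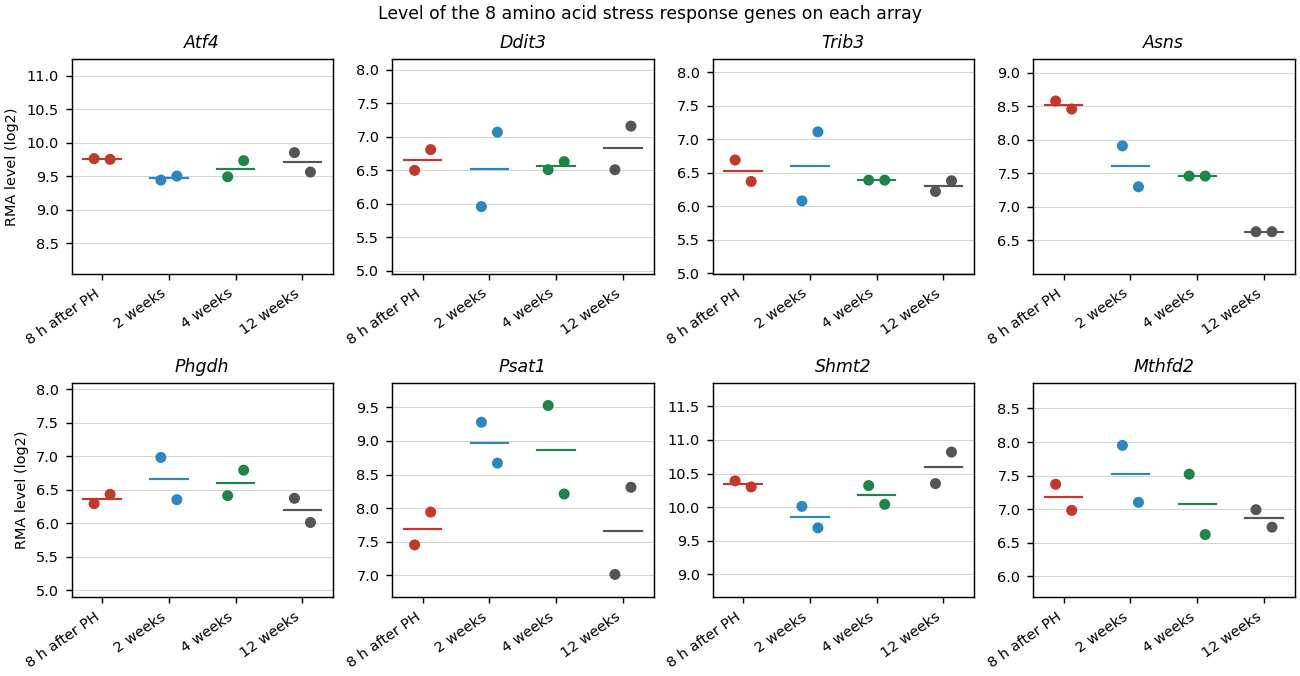
Level of each of the 8 genes (y axis, RMA level, log2) on each array, by group (x axis); points are arrays and lines are means of 2. Asns falls into a high PH pair, overlapping 2- and 4-week pairs and a low 12-week pair at 6.63, while Atf4 keeps between 9.44 and 9.85.

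The first steps of serine synthesis from glucose are run by Phgdh, the committing dehydrogenase, and Psat1, the aminotransferase after it. Phgdh was low on all arrays, at 6.29 and 6.43 after PH, 6.98 and 6.35 at 2 weeks, 6.41 and 6.79 at 4 weeks and 6.37 and 6.01 at 12 weeks. The 4-week arrays lay above the 12-week ones by 0.41 ± 0.28 (adjusted p = 0.9994), and every other pair of groups overlapped. Psat1 covered a wider range: 7.45 and 7.94 after PH, 9.28 and 8.67 at 2 weeks, 9.53 and 8.21 at 4 weeks and 7.01 and 8.31 at 12 weeks. The PH arrays were below all 2- and 4-week arrays, and the higher 12-week array lay above the lower 4-week one. Psat1 differed by 1.31 ± 0.53 between 2 and 12 weeks (means 8.97 ± 0.43 and 7.66 ± 0.92, SD, n = 2; adjusted p = 0.3978), and by -1.28 ± 0.53 between PH and 2 weeks (adjusted p = 0.393). Against 12 weeks, PH differed by 0.04, within an interval from -1.18 to 1.25 that holds a change of over 2-fold either way. Without the first 12-week array the 2-week difference was 0.67, and without the second it was 1.96.

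Shmt2, the mitochondrial enzyme that passes a carbon from serine to folate, had the opposite order by age. It read 10.39 and 10.30 after PH, 10.01 and 9.69 at 2 weeks, 10.32 and 10.04 at 4 weeks and 10.35 and 10.82 at 12 weeks. The 2-week arrays were the lowest and lay apart from all other groups, and the 4-week arrays lay below the 12-week ones. The difference of 2 from 12 weeks was -0.73 ± 0.25 (adjusted p = 0.2821), from 4 weeks -0.33 ± 0.25 (adjusted p = 0.9005) and of PH from 2 weeks 0.49 ± 0.25 (adjusted p = 0.5513). Mthfd2, the next enzyme of the mitochondrial folate path, is known as low in adult tissue and high in dividing cells. It read 7.37 and 6.98 after PH, 7.95 and 7.10 at 2 weeks, 7.52 and 6.62 at 4 weeks and 6.99 and 6.73 at 12 weeks. Only the 2- and 12-week arrays did not overlap, at 0.67 ± 0.38 (adjusted p = 0.6273). That difference was 0.24 without the first 2-week array, which also carried the highest dividing-cell, neutrophil and erythroid marker means (8.09, 7.49 and 7.81). At 4 weeks the first array was again the higher for Mthfd2 (7.52 against 6.62). There it was the lower for these markers (6.63 against 6.91, 5.48 against 5.73 and 6.37 against 6.65). The part of these cells in the Mthfd2 level was not tested.

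Counted over the 8 members, limma called 0 in each of the 6 pairs, while the share of all genes called was 0.0345% for PH against 12 weeks, 2.23% for 2 against 12 weeks, 0.11% for 4 against 12 weeks, 0.455% for 2 against 4 weeks, 2.16% for PH against 2 weeks and 0.31% for PH against 4 weeks. In the same order, 1, 3, 1, 0, 2 and 1 members had an unadjusted p under 0.05, beside 6.01%, 11.1%, 4.47%, 7.24%, 11.6% and 10.2% of all genes, so counts of 0 or 1 of 8 lie near the background. For PH against 12 weeks the 1 was Asns, and for 2 against 12 weeks they were Asns, Psat1 and Shmt2. Groups that did not overlap are common with 2 arrays each. After PH against 12 weeks 1 of 8 members did not overlap (29% of all genes), at 2 against 12 weeks 5 (34.4%), at 4 against 12 weeks 4 (25.1%), at 2 against 4 weeks 1 (40.2%), after PH against 2 weeks 4 (46.8%) and after PH against 4 weeks 3 (44.1%). The members' median difference from 12 weeks was 0.11 after PH, 0.39 at 2 weeks and 0.15 at 4 weeks, beside 0.00, -0.01 and 0.00 over all genes. The 3 comparisons share the 12-week arrays.

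**Figure D2:**
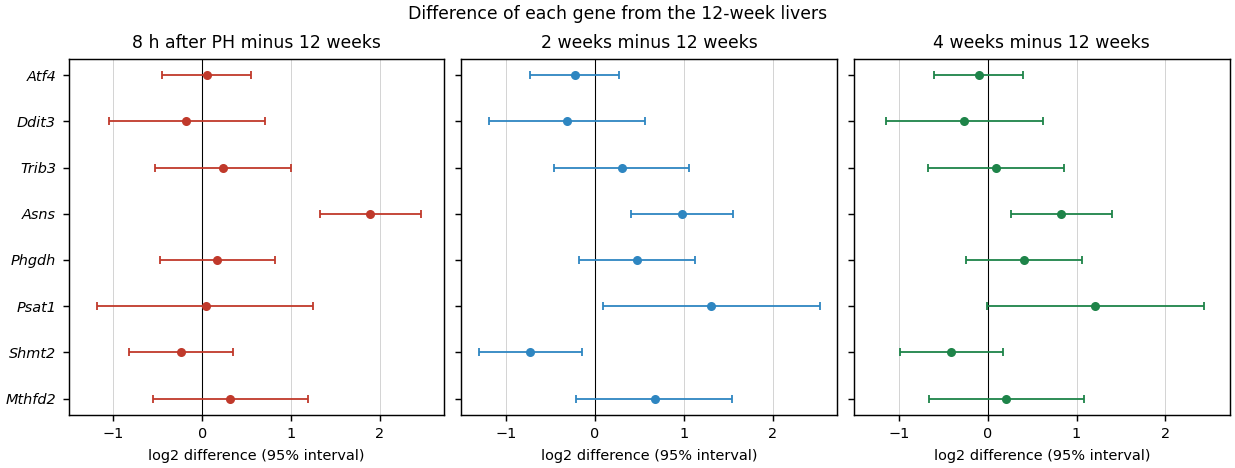
Difference of each gene from the 12-week livers (x axis, log2) after PH, at 2 weeks and at 4 weeks; points are differences of group means and bars are 95% intervals from limma, not adjusted for the number of genes. After PH the interval of Asns, 1.32 to 2.46, is the only one of the 8 that excludes 0.

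The pattern of Asns over the 8 arrays was most like those of Junb, an AP-1 immediate-early factor (root mean square difference 0.187 after centring each gene on its mean), Cdr2 (0.193) and Zfp9 (0.214). Junb read 8.94 and 8.86 after PH, 7.88 and 7.35 at 2 weeks, 8.04 and 7.83 at 4 weeks and 6.95 and 7.02 at 12 weeks. For Psat1 the closest were Plod2, a collagen lysyl hydroxylase (0.228), Anxa2, an annexin (0.243), and Mfap4, a microfibril protein (0.298). Anxa2 read 7.46 and 7.52 after PH, 9.36 and 8.13 at 2 weeks, 9.30 and 8.10 at 4 weeks and 7.22 and 7.98 at 12 weeks, so that the 2 arrays of a young group differed in the same direction as for Psat1. Anxa2 was picked for closeness over these same arrays, so this likeness was built into the choice. The other 6 members spanned under 1 log2 unit between group means and were not compared. Among the members, the closest patterns were those of Ddit3 and Trib3 (0.3), followed by Atf4 and Shmt2 (0.307). The measure is not scaled, so genes that vary little lie close to each other. Group means of Ddit3 and Trib3 spanned 0.31 and 0.30, less than the gap between their 2-week arrays (-1.11 and -1.03, first minus second).

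**Figure D3:**
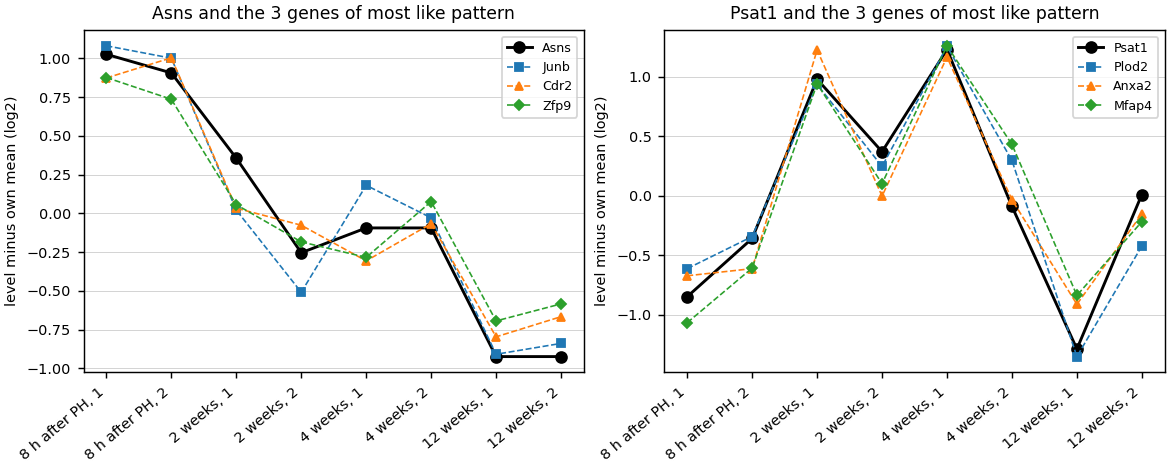
Level minus the gene's own mean (y axis, log2) on each array (x axis), for Asns and Psat1 (black) and the 3 genes closest to each; lines only join the arrays of a gene, which have no order. The closest genes are within 0.187 to 0.214 of Asns and 0.228 to 0.298 of Psat1 on average.

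Markers of stellate cells and fibroblasts, such as Col1a1 and Dcn, varied beside Psat1. Their mean level over 8 of 8 markers was 7.07 and 7.20 after PH, 8.60 and 8.29 at 2 weeks, 8.80 and 7.62 at 4 weeks and 7.08 and 7.10 at 12 weeks, and the medians of the differences from 12 weeks were -0.01, 1.51 and 1.22. As with Psat1, the first 4-week array was the highest of the 8. At 12 weeks, unlike the marker means, the Psat1 arrays lay apart, at 7.01 and 8.31. The part of these cells in the Psat1 level was not tested. Psat1 and Mthfd2 each have another probe set with the same symbol. The other Psat1 probe set read lower throughout (5.74 to 7.12) and differed from 12 weeks by -0.17 after PH, 0.60 at 2 weeks and 0.47 at 4 weeks, with the 4-week arrays both at 6.70. The other Mthfd2 probe set differed from 12 weeks by 0.24 after PH, 0.83 at 2 weeks and 0.28 at 4 weeks, close to the 0.31, 0.67 and 0.21 of the one used. Probe sets of one gene can read different transcripts or a related copy elsewhere in the genome, which was not tested.

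**Figure D4:**
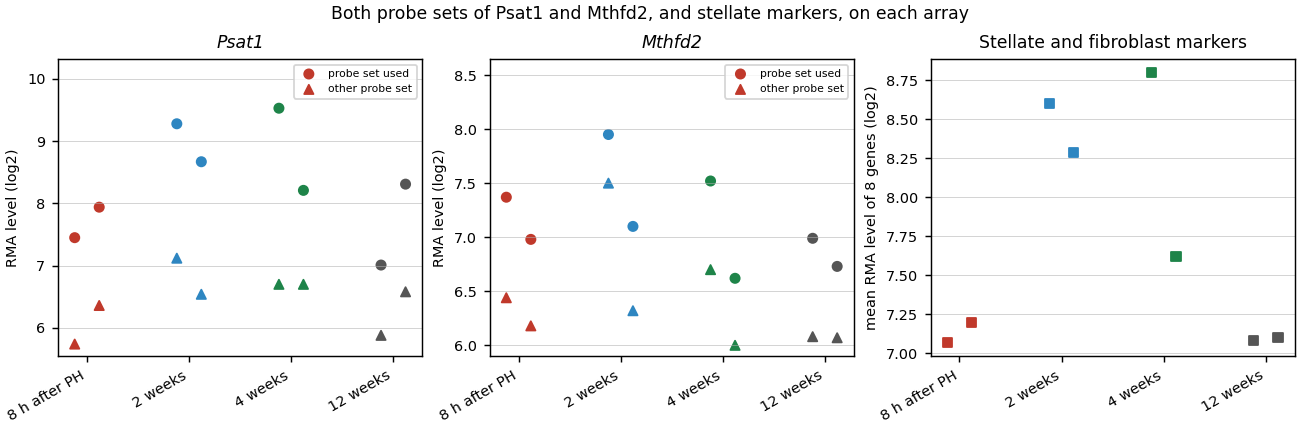
Level (y axis, RMA, log2) of both probe sets of Psat1 and of Mthfd2, and mean level of the 8 stellate and fibroblast markers, on each array by group (x axis); circles are the probe sets used and triangles the others. The other Psat1 probe set puts both 4-week arrays at 6.70, where the one used reads 9.53 and 8.21, and the markers read 8.80 and 7.62.

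The wider pathway was followed through 82 genes in 7 lists, 77 of them measured. Upstream of Atf4, all 10 eIF2 kinases and regulators were measured, and 0 passed against 12 weeks after PH, at 2 or at 4 weeks (median differences 0.18, 0.11 and -0.20). Of all genes, 0.0345%, 2.23% and 0.11% passed in these comparisons. Eif2ak2, the kinase PKR of the antiviral response, was higher after PH than at 2 weeks by 1.15 ± 0.20 (adjusted p = 0.02897), at 9.16 and 9.29 against 8.08 and 8.06. This call was lost without either PH, either 2-week or either 4-week array. It was also lost with every probe set tested (limma adjusted p = 0.05328) and with an intensity trend and robust prior (0.05152). Eif2s1, the phosphorylated subunit itself, read 7.93 and 9.32 on the 12-week arrays, and its PH difference of 0.78 ± 0.53 did not pass.

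The aminoacyl-tRNA synthetases, which load amino acids on tRNA, lay mostly higher after PH on these arrays. Of 12 measured, 11 were above 0 against 12 weeks (50.3% of all genes), 9 had both PH arrays above both 12-week arrays and 1 below (13.7% and 15.2% of all genes), and the median was 0.49. None of the 12 passed singly in limma (0.0345% of all genes), while 6 had an unadjusted p under 0.05 (6.01% of all genes). The list was chosen with earlier results of these data known. Its genes were read on the same arrays and are not replicates, so these counts are no independent support for a rise. Wars1, the tryptophan enzyme, read 10.21 and 10.01 after PH against 8.42 and 8.85 at 12 weeks (1.47 ± 0.23, adjusted p = 0.1165), and Eprs1, the glutamate and proline enzyme, 12.34 and 12.32 against 11.17 and 11.22 (1.13 ± 0.27, adjusted p = 0.359). Wars1 passed in 1 of 17 alternatives, with the receptor-gene covariate (limma adjusted p = 0.04473), and Eprs1 in 0 of 17. Cars1, the cysteine enzyme, was the 1 below, at -0.50 ± 0.30. Without the first 12-week array 9 of 12 were above 0, with a median of 0.34.

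Against 2 weeks, 2 of 12 synthetases rose after PH and 0 fell, beside 2.16% of all genes called. Eprs1 rose by 1.52 ± 0.27 (adjusted p = 0.0309, 10.49 and 11.12 at 2 weeks). Tars1, the threonine enzyme, rose by 1.12 ± 0.21 (adjusted p = 0.03334, 10.70 and 10.69 against 9.51 and 9.64). Eprs1 was lost without either PH, the first 2-week or either 4-week array, and with every probe set tested (limma adjusted p = 0.06658). Tars1 was lost without either PH, either 2-week or either 4-week array. It was also lost with arrays centred on the median (limma adjusted p = 0.05246), an intensity trend and robust prior (0.05813) and every probe set tested (0.05961). Against 4 weeks 11 of 12 were above 0 (49.2% of all genes) with a median of 0.85. At 4 weeks against 12, by contrast, 1 of 12 was above 0 (50.1% of all genes) and the median was -0.22. Of the 5 synthetases whose promoter stretch is printed, the PH differences from 12 weeks ran from 0.12 for Mars1 to 0.72 for Tars1. The matches of Yars1 and Cars1 lie after the start, and these genes differed by 1.13 and -0.50. Wars1 (1.47) and Eprs1 (1.13) were not among the synthetases with a match. Outside the synthetases, list genes with a match differed by 1.27 (Slc1a4), 0.92 (Herpud1), 0.88 (Fgf21) and 0.20 (Pck2). The others differed by 0.04 (Slc7a1), 0.02 (Chac1), -0.01 (Ppp1r15b), -0.12 (Pycr1) and -0.20 (Nupr1). Whether the motif bears on these differences was not tested.

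The ER chaperones and genes of the other unfolded protein response arms were all 13 above 0 after PH against 12 weeks (50.3% of all genes). Their median was 0.70, and 10 had both PH arrays above both 12-week arrays (13.7% of all genes). In limma 0 passed and 6 had an unadjusted p under 0.05 (0.0345% and 6.01% of all genes). This list too was chosen with earlier results known, and its genes are not replicates, so the counts only describe these arrays. Creld2, an ER folding factor, read 10.32 and 10.36 after PH and 8.13 and 9.29 at 12 weeks (1.63 ± 0.39, adjusted p = 0.3375). Dnajb9, a co-chaperone and target of the IRE1 arm, read 8.83 and 9.22 against 7.07 and 8.24 (1.37 ± 0.51, adjusted p = 0.7064). The median was 0.38 without the first 12-week array and 0.94 without the second, with 12 of 13 above 0 either way, and 11 of 13 were above 0 without the first PH array. Against 2 and 4 weeks the PH medians were 0.72 and 0.76, with 13 and 11 of 13 above 0 (53.1% and 49.2% of all genes). Between 2 and 12 weeks the median was 0.05 with 7 of 13 above 0 (48.4% of all genes).

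Among amino acid transporters, 9 of 9 were measured and 0 passed after PH against 12 weeks, beside 0.0345% of all genes. At 2 weeks 1 rose and 1 fell against 12 weeks, beside 2.23% of all genes called. Slc1a4, a carrier of alanine, serine and cysteine, rose by 2.75 ± 0.32 (adjusted p = 0.00519), at 9.85 and 9.29 against 6.83 and 6.82, and passed in 17 of 17 alternatives. It was also higher at 2 than at 4 weeks, by 2.31 ± 0.32 (adjusted p = 0.02332), a call lost without either 2-week or either 4-week array. It also failed to pass there with only the 2 groups compared (limma adjusted p = 0.05142) and with every probe set tested (0.06082). After PH it read 7.79 and 8.40, above both 12-week arrays by 1.27 ± 0.32 (adjusted p = 0.386). Slc6a9, a glycine transporter, fell by 1.62 at 2 weeks (adjusted p = 0.01248), at 8.10 and 7.79 against 9.40 and 9.74. It lost the call without either 2-week array, and with only the 2 groups compared (limma adjusted p = 0.07613). It was higher after PH than at 2 weeks by 1.59 ± 0.24 (adjusted p = 0.01383), which was lost without either PH or either 2-week array (0.07165 to 0.1368).

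Other ATF4-linked stress targets gave 0 calls of 17 against 12 weeks in any of the 3 comparisons, with medians of 0.02 after PH, 0.11 at 2 weeks and 0.15 at 4 weeks. In the same order, 0.0345%, 2.23% and 0.11% of all genes were called. Cth, cystathionine gamma-lyase of cysteine synthesis, read 10.48 and 10.32 after PH, 12.25 and 11.75 at 2 weeks, 13.04 and 13.02 at 4 weeks and 13.41 and 12.29 at 12 weeks. It differed after PH from 4 weeks by -2.63 ± 0.36 (adjusted p = 0.03413). It lost that call without either array of PH, 2 weeks or 4 weeks, and with every probe set tested (limma adjusted p = 0.09996). Its difference from 12 weeks was -2.45 ± 0.36 (adjusted p = 0.1054). That difference passed in 3 of 17 alternatives, among them the receptor-gene covariate (limma adjusted p = 0.01877). It was -1.89 without the first 12-week array and -3.01 without the second. Gdf15, a stress hormone, differed by -1.14 ± 0.24 at 2 weeks (adjusted p = 0.05444), at 5.77 and 5.65 against 6.60 and 7.10. It passed in 5 of 16 alternatives. Among these were arrays centred on the 75th percentile (limma adjusted p = 0.02869), an intensity trend and robust prior (0.03823) and the receptor-gene covariate (0.0157). The difference was -1.39 without the first 12-week array and -0.89 without the second.

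Of the other serine and folate enzymes 8 of 10 were measured and 0 passed in the 3 comparisons with 12 weeks. Those comparisons called 0.0345% of all genes after PH, 2.23% at 2 weeks and 0.11% at 4 weeks. Aldh1l1, a cytosolic folate dehydrogenase of mature hepatocytes, read 10.26 and 9.42 at 2 weeks and 10.21 and 9.83 after PH against 11.66 and 11.65 at 12 weeks. The differences were -1.81 ± 0.40 (adjusted p = 0.06916) and -1.63 ± 0.40 (adjusted p = 0.3714). The 2-week difference passed in 4 of 17 alternatives, among them arrays centred on the 75th percentile (limma adjusted p = 0.04143). Slc25a32, the mitochondrial folate carrier, was at 9.77 and 10.07 at 4 weeks against 7.98 and 9.08 (1.39 ± 0.36, adjusted p = 0.5154). In the breakdown of serine and glycine, 1 of 8 passed at 2 against 12 weeks (2.23% of all genes). Sds, serine dehydratase, rose by 3.46 ± 0.63 (adjusted p = 0.03037), at 8.62 and 10.84 against 6.37 and 6.16. That call was lost without either 4-week or either 12-week array. It was also lost with only the 2 groups compared (limma adjusted p = 0.08331) and with every probe set tested (0.07483). After PH Sds read 6.10 and 7.04, a difference from 2 weeks of -3.16 ± 0.63 (adjusted p = 0.04471). This call was lost when any array but the first 2-week one was left out. It was also lost with arrays centred on the median (limma adjusted p = 0.05953) and with the receptor-gene covariate (0.06631). The same held with only the 2 groups compared (0.08556) and every probe set tested (0.1047). The difference was -2.05 without the second 2-week array. Agxt, the liver's glyoxylate aminotransferase, was at 10.68 and 10.88 after PH against 9.82 and 9.21 at 12 weeks (1.26 ± 0.28, adjusted p = 0.2762).

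**Figure D5:**
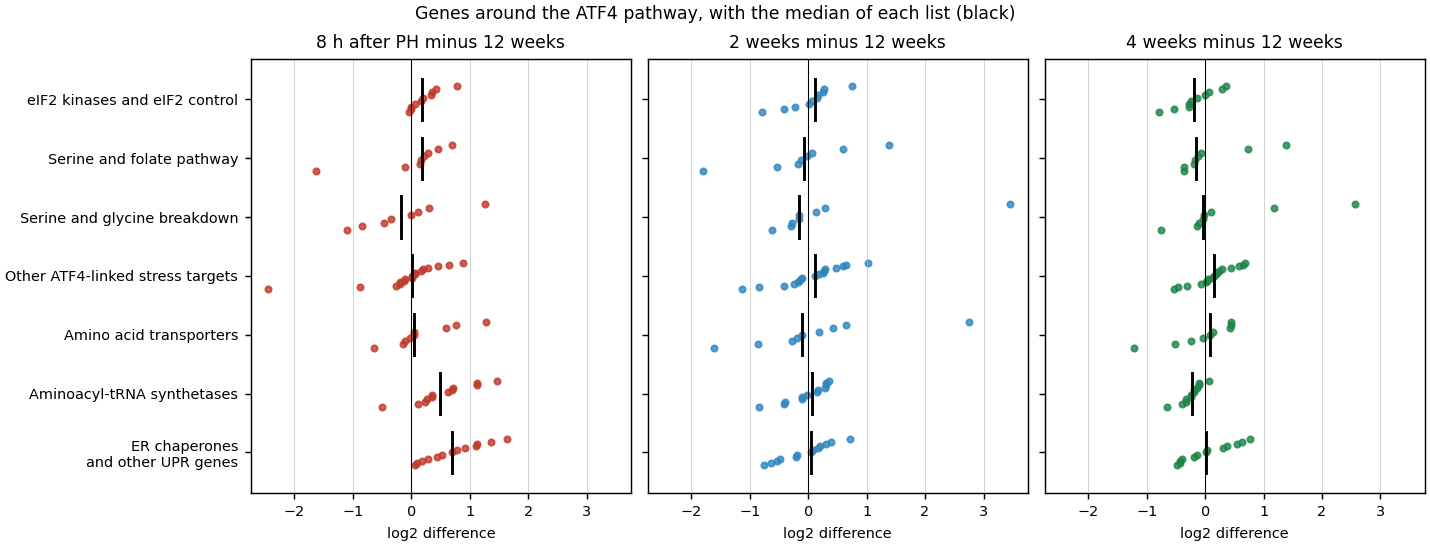
Difference from the 12-week livers (x axis, log2) of the 77 measured genes in 7 lists (y axis) after PH, at 2 weeks and at 4 weeks; points are genes, spread vertically for view, and black bars are list medians. After PH the synthetase median is 0.49 and the chaperone median 0.70, while at 4 weeks they are -0.22 and 0.02.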

How the data were processed

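The deposited values are log2 levels per probe set. The authors made them with Affymetrix Expression Console by RMA, as listed per the submitters' processing notes. RMA equalises the arrays and compresses changes near background. No version, filter or genome build is stated in these sources. Of 29214 probe sets, 15316 had 1 symbol, 317 several and 13581 none in the platform annotation. Symbols were looked up in the GRCr8 gene table and 0 changed. The probe set with the highest mean stood for each of 528 genes with several, which left 14511 genes. The 4 groups were fitted in 1 model over the 8 arrays with limma 3.58.1 (R 4.3.3, lmFit and eBayes, 4 residual and 4.27 prior degrees of freedom). The model gives each gene 1 spread for all groups. Mean variance over genes was 0.233 at 12 weeks and 0.0886 to 0.11 in the other groups. Intervals against 12 weeks may thus be too narrow for many genes, and those between other groups too wide. Tests were two-sided, and calls had a Benjamini-Hochberg adjusted p under 0.05 over all genes. The model was also run on simulated data in which each gene had 1 spread for all groups. That run cannot speak to the unequal spread given above.

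Members and lists were chosen with earlier results of these data known. The genes named are the members, list genes that passed, the 2 of each list with the largest difference from 12 weeks, and the 3 closest to each member spanning at least 1 log2 unit between group means. Other synthetases were named after their values were seen. The replicate numbers are not stated to pair samples. Over the 6 pairs of groups, deviations of same-numbered arrays correlated between 0.02 (2 against 12 weeks) and 0.57 (PH against 12 weeks). Alternatives left out each array, changed centring, prior, filter, probe set choice or samples, or added a covariate. The number of arrays limits the precision.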

Additional observations from a re-analysis of the deposited data

How the results depend on the processing

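Over 17 alternatives, 34 of 798 recomputed differences of single members changed sign and 2 came past the threshold. The count of members that differed across the 4 groups, 1 as reported (Asns), was 0 in 9 of 16 alternatives. It ran from 0 to 1 when single arrays were left out, was 0 with each array centred on its median (178 genes called in all) and 0 with every probe set tested (163). For PH against 12 weeks the count was 1 with the replicate block (Asns, limma adjusted p = 0.02274; 41 genes called in all) and 1 with the receptor-gene covariate (50), against 0 of the members and 5 genes as reported. The block also brought past the threshold, by limma, Aldh1l1 (adjusted p = 0.01044) and Gdf15 (adjusted p = 0.03087) for 2 against 12 weeks and Cth (adjusted p = 0.02024) for PH against 12 weeks. The replicate numbers are not stated to pair arrays. Signs that turned belonged to differences that did not pass. With arrays centred on the median Ddit3 was 0.02 for 2 against 4 weeks, with the 75th percentile Phgdh was -0.02 there, with probe sets averaged Psat1 was -0.07 for PH against 12 weeks, and with the covariate Mthfd2 was -0.07 for PH against 4 weeks. Without 1 array, PH against 12 weeks ran from -0.09 to 0.19 for Atf4, -0.5 to 0.15 for Ddit3, -0.01 to 0.35 for Phgdh and -0.61 to 0.68 for Psat1. For 2 against 12 weeks Ddit3 ran from -0.87 to 0.24 and Trib3 from -0.22 to 0.82. For 4 against 12 weeks Atf4 ran from -0.24 to 0.05, Ddit3 from -0.59 to 0.06 and Mthfd2 from -0.24 to 0.65. For 2 against 4 weeks the ranges were -0.16 to 0.45 for Asns, -0.61 to 0.5 for Ddit3, -0.25 to 0.38 for Phgdh, -0.56 to 0.76 for Psat1 and -0.31 to 0.72 for Trib3. For PH against 2 weeks they were -0.42 to 0.69 for Ddit3, -0.78 to 0.07 for Mthfd2, -0.62 to 0.01 for Phgdh and -0.58 to 0.45 for Trib3, and for PH against 4 weeks -0.07 to 0.24 for Ddit3, -0.34 to 0.55 for Mthfd2 and -0.02 to 0.3 for Trib3. A fit without 1 array leaves a group with a single array, which is assumed to vary like the others. The cause of these shifts was not tested. Precision is limited by having 2 arrays a group. The pathway lists were recomputed under alternatives added after seeing the data.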
